A study of Mus musculus with 15 samples.

Results

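The genes described here are 35 mouse genes of the lysosome, listed by symbol: 12 proteases, 10 enzymes that degrade glycans, 7 proteins that degrade or move lipids, 5 proteins of the lysosomal membrane and progranulin. They were followed in neural stem cells of the adult subventricular zone, the layer along the lateral ventricles whose stem cells can make neurons, astrocytes and oligodendrocytes. Each gene is represented by 1 probe set, that with the highest mean level over the 15 arrays. Of the 35 genes, 33 had a probe set with a single gene symbol, and Ctso and Cd63 were not analysed here. Of the 33 genes, 32 lay above the filter on low values and were tested among 7909 genes of 12393, and Ctss lay below it.

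The cells came from female C57Bl6/J mice aged 6 months and were grown as neurospheres, free-floating clusters, and used at passages 5 to 7. The groups were undifferentiated cells in bFGF and EGF, and cells 12 h or 24 h after withdrawal of both factors, with 5 arrays each. Cells of the 12 h and 24 h groups also lay on poly-D-lysine in 5% serum, so the loss of growth factors, the serum and the surface cannot be told apart. No label says that the samples of a group were separate cultures, so every p-value rests on a spread that may be technical. Per the series design, the comparison asks how gene expression differs shortly after differentiation begins.

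Lysosomes are acidic organelles in which hydrolases break down proteins, glycans and lipids that arrive by endocytosis and autophagy. Most of these enzymes are sorted in the Golgi through mannose 6-phosphate receptors, and a proton pump, the V-ATPase, keeps the lumen acidic. Many lysosomal genes carry a CACGTG-centred promoter element that is bound by TFEB, TFE3 and MITF, transcription factors held in the cytoplasm while mTORC1 is active. In the adult subventricular zone of mice, lysosomal activity is known to differ between quiescent and activated neural stem cells.

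Levels are given on a log2 scale, and a difference of 1 is a 2-fold change. They are compared between arrays for a gene and never between genes. Differences carry the standard error of a limma fit to all 15 arrays, and a gene was said to rise or fall only where its p, adjusted over all 7909 genes, was under 0.05. The labels conflict: title and array file carry different codes for 13 of the 15 samples, and for 8 the group would differ. Groups follow the titles, and with groups taken from the file codes 0 of the 7909 genes, these 32 included, passed in any comparison. Title codes end in 1 of 3 suffixes, here called A, B and C, and fall into 6 runs of consecutive codes. No run holds more than 1 array of a group, and no label says whether a run is a matched set. The main fit has no term for suffix or run. Between groups, arrays that share a suffix deviated together, with a median correlation across genes of 0.327 over 25 pairs of arrays. It was -0.164 over 50 pairs that do not share one. Deviations were taken from the group mean and cancel within each group, so the second value is not independent of the first. Because of the shared deviation, differences within suffixes and directions within runs are given as well for the lysosomal genes that passed. The 12 h replicates 3 and 4 were the most alike of all pairs, with an SD of the difference over genes of 0.15, against 0.277 for the next pair. RNA integrity can be read from the ratio of beta-actin 3' to 5' probe sets, which averaged 2.78 ± 0.365 at 24 h and 1.95 ± 0.238 in undifferentiated cells (SD, n = 5 each). By a two-sided exact permutation test p was 0.00794, the smallest this design allows, with an adjusted p of 0.0476 over 6 tests. At 12 h it averaged 2.36 ± 0.148 (exact permutation p = 0.0159 against undifferentiated cells, adjusted p = 0.0476). The same ratio for Gapdh did not pass, with 1.34 ± 0.0788 at 24 h and 1.19 ± 0.207 in undifferentiated cells (exact permutation p = 0.151, adjusted p = 0.226), and 1.29 ± 0.0772 at 12 h (exact permutation p = 0.341, adjusted p = 0.341).

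All 11 neural stem and progenitor markers with a probe set, Nes and Sox2 among them, were above the filter level, and 4 of them rose and 3 fell at 24 h. Of 18 microglia and macrophage markers, whose cells are rich in lysosomes, 17 lay below it, and the summed linear level of the list was 14.5 to 15.02 at 24 h and 14.9 to 16.0 in undifferentiated cells. The exception was Cd14, whose mean was 0.36 at 24 h, below the filter level of 0.51, and 1.06 in undifferentiated cells, so it passed the filter through the groups where it was higher. None of 10 endothelial markers was above the filter. Beside the marker counts of this paragraph, 12.7% of all genes tested were called higher and 19.4% lower at 24 h. Markers of other neural cells moved with the 24 h group: 8 of 8 tested oligodendrocyte markers rose, with a summed linear level of 521 to 2345 at 24 h and 131 to 309 in undifferentiated cells. Of 11 astrocyte markers 7 rose and 1 fell, with sums of 1896 to 4343 at 24 h and 868 to 1555 in undifferentiated cells. Gfap stands both on this list and on that of the stem and progenitor markers, and was counted in each. Of 4 tested neuron markers 2 rose, with sums over the list that overlapped (15.6 to 21.6 at 24 h, up to 19.7 in undifferentiated cells). Of the pericyte and fibroblast markers only Pdgfrb, Cspg4 and Pdgfra were tested, and 2 of these 3 rose. Sums over the list were 51.1 to 110 at 24 h and 16.2 to 56.9 in undifferentiated cells. The rest of the list, Col1a1 and Col3a1 among them, lay below the filter. The part of these cell types in the differences below was not tested, and in bulk samples a change in the share of a cell type cannot be told apart from a change in RNA per cell. That of RNA integrity was not tested beyond a fit with the actin ratio as a covariate, given below. The ratio itself differed between the groups.

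At 24 h the lysosomal genes moved in both directions. Cathepsin L (Ctsl), legumain (Lgmn), tripeptidyl peptidase 1 (Tpp1) and the membrane protein Scarb2 rose by 1.53 to 2.44-fold. A second probe set of Scarb2 differed by 0.07 and did not show the rise. Cathepsins C, Z and H (Ctsc, Ctsz, Ctsh), beta-galactosidase (Glb1) and alpha-galactosidase A (Gla) fell by 1.58 to 5.52-fold. The counts were 4 higher and 5 lower of 32, or 12.5% and 15.6%, against 12.7% of all genes tested called higher and 19.4% called lower, so both shares were near the background. At an unadjusted p under 0.05 the counts were 8 (25%) and 5 (15.6%), against 17.5% and 25.3% of all genes. The median difference of the 32 genes was 0.13, against -0.060 for all genes tested, with 20 positive and 12 negative. Without single arrays it ran from 0.049 (24 h replicate 1 left out) to 0.23 (undifferentiated replicate 1 left out), and it was 0.062 without undifferentiated replicate 5 and 0.21 without 24 h replicate 2.

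The scaling of the arrays bears on these counts. Quantile normalisation gave 7 genes higher and 5 lower, beside 1585 and 1315 of 7912 genes tested there. Centring each array on its median gave the same counts, beside 1431 and 1110 of 7909 genes. These settings raised the median of all genes by 0.10 and 0.15, and the share of called genes that were higher was 39.6% in the values as deposited, 54.7% after quantile normalisation and 56.3% after centring. Blocking on the title code suffix gave 11 genes higher and 5 lower, or 34.4% and 15.6%, against 18.1% and 23.7% of all genes, and the 9 genes called without the block were among them. With the actin ratio as a covariate, 0 were higher and 1, Ctsc, was lower, in a fit that called 26 of all genes higher and 8 lower and had larger standard errors. In it Ctsh differed by -1.46 ± 0.58, Ctsz by -0.90 ± 0.38, Glb1 by -0.77 ± 0.32 and Gla by -0.49 ± 0.24. On the other side Ctsl differed by 0.91 ± 0.51, Lgmn by 0.88 ± 0.50, Scarb2 by 0.61 ± 0.46 and Tpp1 by 0.57 ± 0.38, each in the direction given above and none passing the test. Without the 4 arrays of suffix C, 0 were higher and 5 lower, with 516 and 612 of all genes. Leaving out 12 h replicate 1, which enters this comparison only through the shared estimate of the spread, gave 9 higher and 6 lower, with 1110 and 1694 of all genes.

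**Figure D1:**
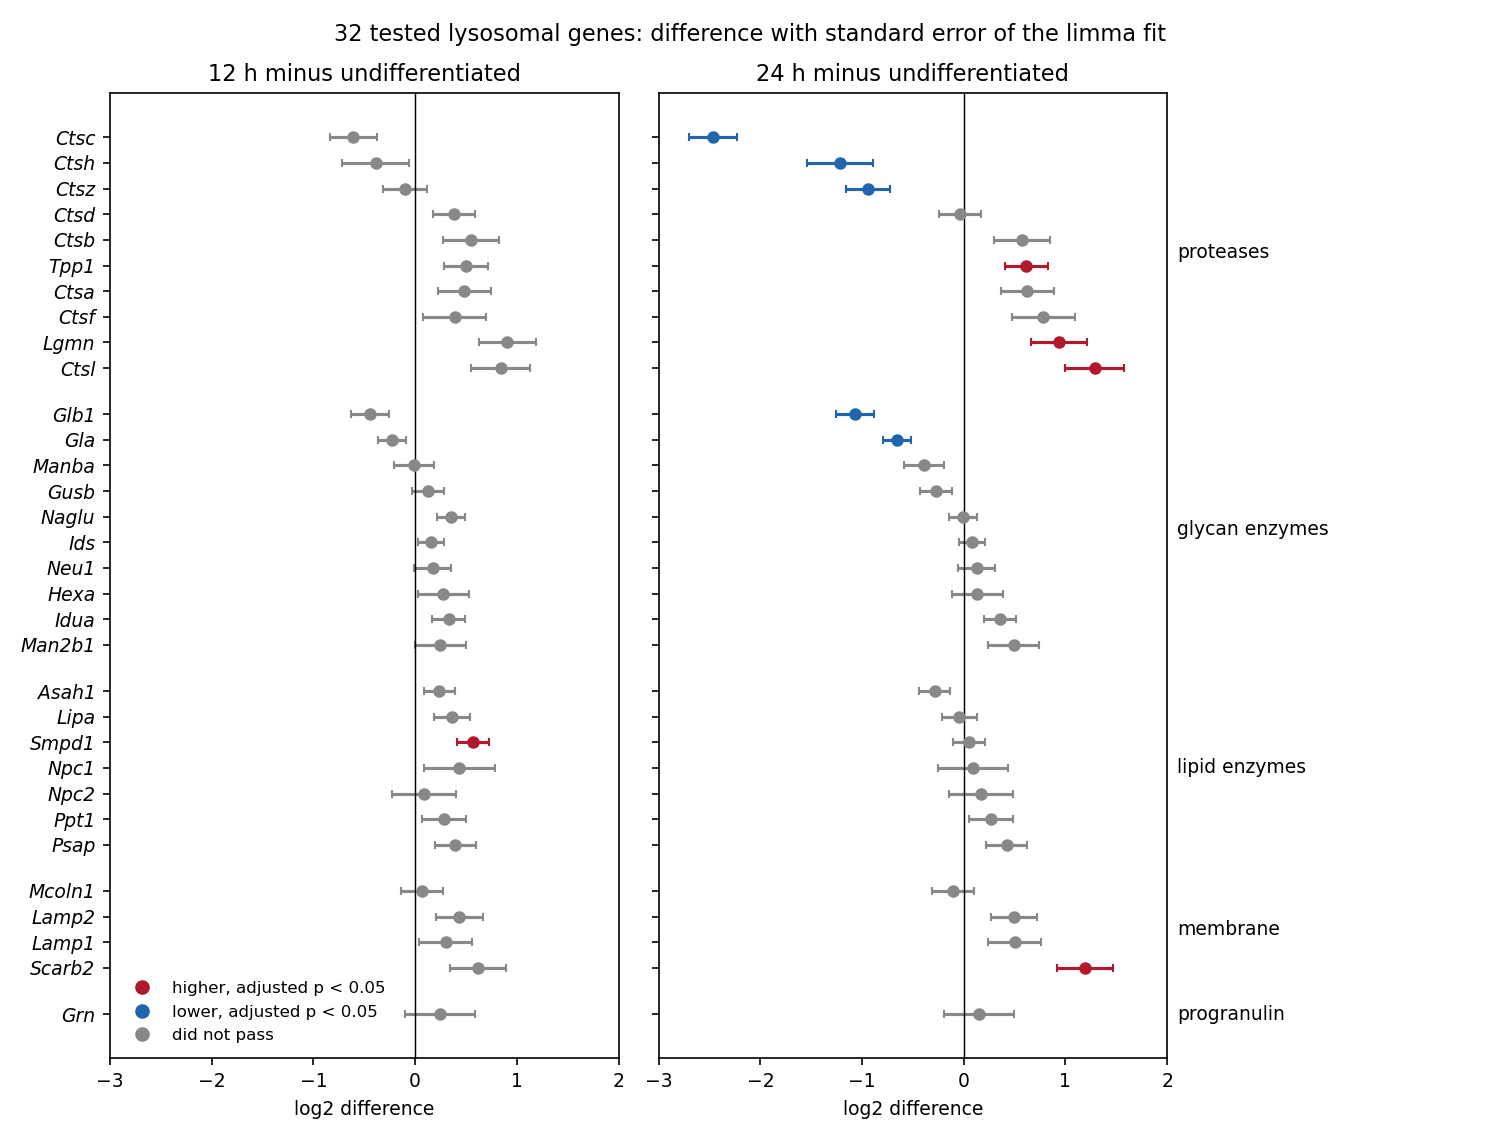
Log2 difference from undifferentiated cells at 12 h (left) and 24 h (right) for the 32 tested lysosomal genes, grouped by role, with bars for the standard error of the limma fit. At 24 h the proteases spread from -2.46 for Ctsc to 1.29 for Ctsl, while the 7 lipid genes lie between -0.29 and 0.42.

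Among the 10 tested proteases, 3 rose and 3 fell at 24 h, beside 12.7% and 19.4% of all genes tested. The median difference of the 10 was 0.59. Cathepsin C, a dipeptidyl peptidase known for activating serine proteases of immune cells, changed most among the 32 genes. Its level was 5.88, 5.89, 6.13, 6.29 and 6.43 in undifferentiated cells, 5.34, 5.25, 6.03, 6.13 and 4.83 at 12 h, and 3.45, 3.20, 3.91, 3.65 and 4.10 at 24 h. All 24 h arrays lay below all 12 h and all undifferentiated arrays, while 12 h and undifferentiated arrays overlapped. Ctsc was 5.52-fold lower at 24 h than in undifferentiated cells (difference -2.46 ± 0.23, adjusted p = 1.63e-05). Within suffix A it was -2.43, within B -2.66 and within C -2.56, and Ctsc kept its call in all 31 alternative settings run with the title groups. At 12 h the difference from undifferentiated cells was -0.61 ± 0.23 (adjusted p = 0.114), with 0 of 5 runs higher.

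Cathepsin Z, a carboxypeptidase, had levels of 5.16, 5.31, 5.07, 5.76 and 6.05 in undifferentiated cells, 5.75, 5.12, 5.50, 5.59 and 4.90 at 12 h, and 4.71, 4.00, 4.61, 4.77 and 4.55 at 24 h. The 24 h arrays were below those of both other groups, and the 12 h and undifferentiated arrays overlapped. Ctsz fell by 0.94 ± 0.21 at 24 h (adjusted p = 0.00409), and its other probe sets had differences of -0.70 and -0.71. By suffix Ctsz differed by -0.52 in A, -1.12 in B and -1.39 in C. Cathepsin H, an aminopeptidase, had levels of 2.31, 2.33, 1.98, 3.44 and 3.85 in undifferentiated cells, 3.05, 2.25, 2.14, 2.19 and 2.34 at 12 h, and 1.79, 0.83, 1.47, 1.90 and 1.83 at 24 h. Undifferentiated replicates 4 and 5 stood above the others, and every 24 h array was below every undifferentiated one. Ctsh fell by 1.22 ± 0.33 at 24 h (adjusted p = 0.0103). Within suffix A the difference was -0.53, within B -1.57 and within C -1.98.

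Cathepsin L, an endopeptidase with broad specificity, had levels of 6.66, 6.14, 6.30, 5.78 and 6.04 in undifferentiated cells, 7.83, 7.10, 6.37, 6.54 and 7.28 at 12 h, and 7.56, 6.66, 7.19, 7.87 and 8.06 at 24 h. The groups met at 6.66, where 24 h replicate 2 was above undifferentiated replicate 1 only in further decimals. Ctsl rose by 1.29 ± 0.29 at 24 h, or 2.44-fold (adjusted p = 0.00396). By suffix this difference was 1.16 in A, 0.89 in B and 1.93 in C. At 12 h the difference was 0.84 ± 0.29 (adjusted p = 0.0812, and 0.0124 with the suffix as a block).

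Legumain cleaves after asparagine and processes cathepsins to their mature chains. Its level was 2.99, 3.54, 3.83, 3.51 and 3.31 in undifferentiated cells, 4.64, 4.96, 3.67, 3.71 and 4.73 at 12 h, and 4.97, 3.72, 4.13, 4.30 and 4.74 at 24 h. The 12 h arrays split by suffix, with the suffix B replicates 3 and 4 within the undifferentiated range and the other 3 above it. At 24 h replicate 2, also suffix B, lay in that range. Lgmn rose by 0.94 ± 0.28 at 24 h (adjusted p = 0.0174), and was higher in 3 of 4 complete runs. Within suffix A the difference was 1.71, within B 0.26 and within C 1.22. At 12 h the difference was 0.91 ± 0.28 (adjusted p = 0.0558, and 0.0222 with the suffix as a block).

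Tripeptidyl peptidase 1, an enzyme lost in a childhood ceroid lipofuscinosis, had levels of 5.74, 5.46, 5.32, 5.20 and 5.40 in undifferentiated cells, 6.66, 6.02, 5.46, 5.38 and 6.11 at 12 h, and 6.15, 5.57, 6.06, 6.19 and 6.24 at 24 h. At 24 h 4 arrays were above the undifferentiated range and replicate 2 was within it. Tpp1 rose by 0.62 ± 0.21 at 24 h (adjusted p = 0.0366), the weakest of the 9 calls. It lost the call when any of 8 single arrays was left out, when its probe sets were averaged (0.55, adjusted p = 0.0863), without suffix C and with the actin covariate. By suffix Tpp1 differed by 0.54 in A, 0.56 in B and 0.81 in C at 24 h.

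The other 4 tested proteases did not pass at 24 h. The differences were 0.78 ± 0.31 for the cysteine protease Ctsf (adjusted p = 0.0628), 0.63 ± 0.26 for Ctsa, which stabilises beta-galactosidase and sialidase, and 0.57 ± 0.27 for Ctsb. All 3 passed with the suffix as a block (adjusted p = 0.00974, 0.0214 and 0.0356 for Ctsf, Ctsa and Ctsb). Cathepsin D, the main aspartic protease, had a difference of -0.04 ± 0.21. For Ctsb, 4 probe sets had differences of 0.57, 0.12, 0.46 and -0.14. Cathepsin S, a protease of antigen-presenting cells, lay below the filter and was not tested, with levels of -0.38 to -0.21 at 24 h and -0.34 to 0.36 in undifferentiated cells.

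**Figure D2:**
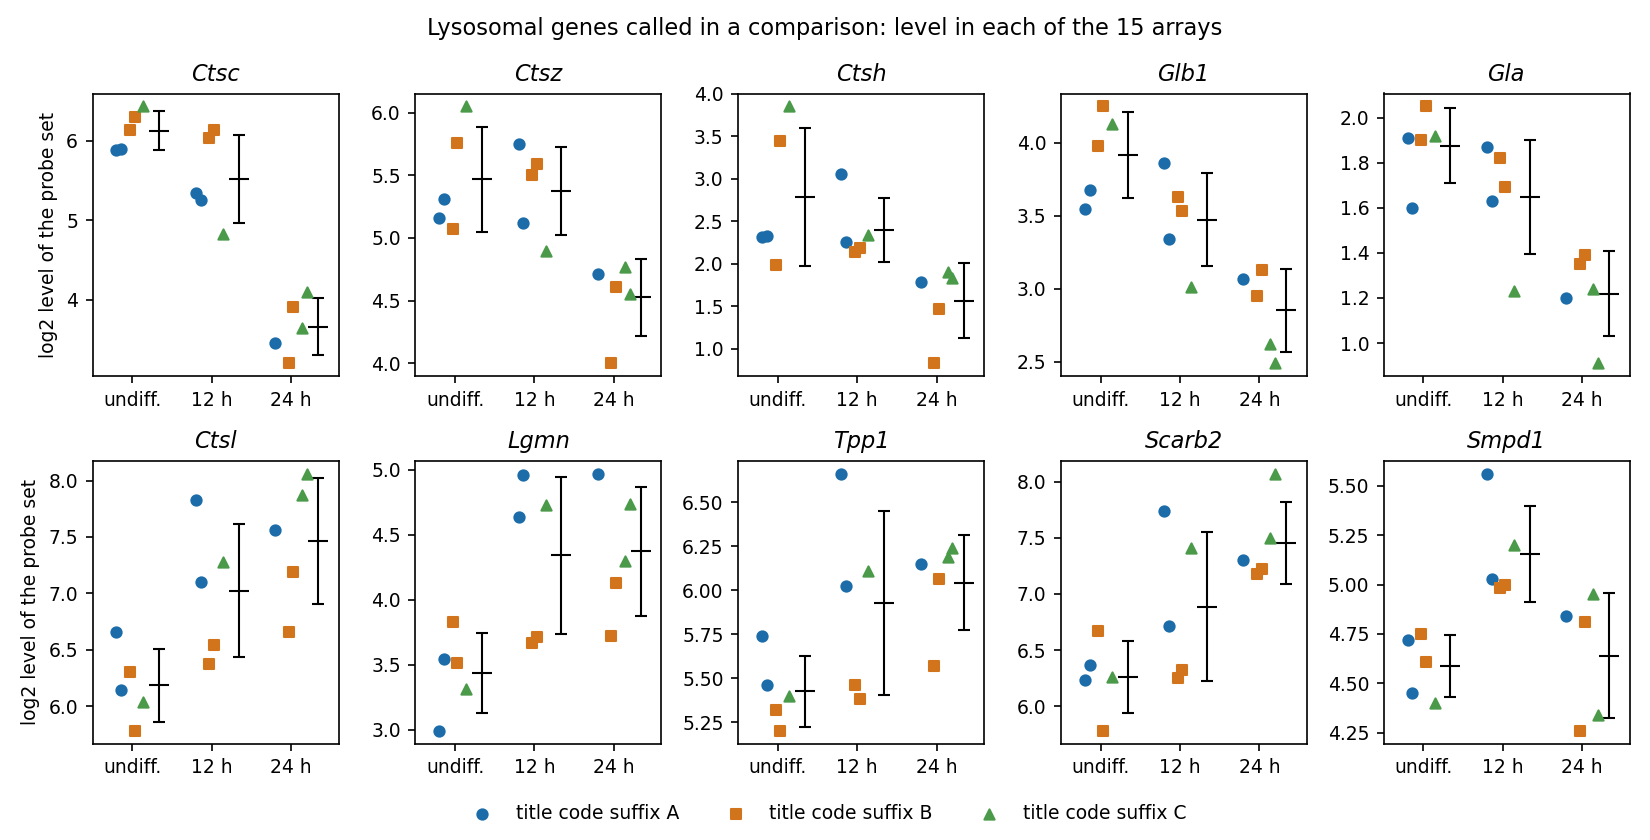
Log2 level in each of the 15 arrays for the 10 lysosomal genes that passed in a comparison, by group (undifferentiated, 12 h, 24 h) with symbols for the title code suffix, and the group mean with SD (n = 5) beside the points. The 24 h points lie below all undifferentiated points for Ctsc, Ctsz, Ctsh, Glb1 and Gla, and the suffix B points at 12 h lie low for Lgmn and Tpp1.

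Of the 10 glycan-degrading enzymes, all tested, 2 fell and 0 rose at 24 h, with a median difference of 0.038. Beside these counts, 19.4% of all genes fell and 12.7% rose. Beta-galactosidase, which removes galactose from gangliosides and keratan sulfate and is the enzyme behind the senescence-associated stain, had levels of 3.55, 3.68, 3.98, 4.25 and 4.13 in undifferentiated cells. They were 3.86, 3.34, 3.63, 3.53 and 3.01 at 12 h and 3.07, 2.95, 3.13, 2.62 and 2.49 at 24 h. All 24 h arrays were below the undifferentiated arrays, and the 12 h arrays spanned the gap and overlapped with both. Glb1 fell by 1.06 ± 0.19 at 24 h, a 2.09-fold difference (adjusted p = 8.77e-04). Within suffix A the difference was -0.55, within B -1.07 and within C -1.57.

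Alpha-galactosidase A, which clears globotriaosylceramide and is deficient in Fabry disease, had levels of 1.91, 1.60, 1.90, 2.05 and 1.92 in undifferentiated cells, 1.87, 1.63, 1.82, 1.69 and 1.23 at 12 h, and 1.20, 1.35, 1.39, 1.24 and 0.91 at 24 h. The 24 h arrays all lay below the undifferentiated ones, and of the 12 h arrays only replicate 5 reached down among them. Gla fell by 0.66 ± 0.14 at 24 h (adjusted p = 0.00305). Its levels were low, and its other probe set lay below the filter. By suffix Gla differed by -0.55 in A, -0.60 in B and -0.85 in C.

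The other 8 enzymes of glycan breakdown did not pass at 24 h and differed by -0.40 to 0.49. On the negative side were beta-mannosidase Manba (-0.40 ± 0.20), beta-glucuronidase Gusb (-0.27 ± 0.16) and the heparan sulfate enzyme Naglu (-0.01 ± 0.14). On the positive side were Ids (0.08 ± 0.13) and Idua (0.36 ± 0.16), which act in turn on heparan and dermatan sulfate, sialidase Neu1 (0.13 ± 0.18), the hexosaminidase alpha chain Hexa (0.13 ± 0.25) and alpha-mannosidase Man2b1 (0.49 ± 0.25). Gusb passed when its probe sets were averaged (-0.40, adjusted p = 0.0168), and Idua and Man2b1 passed with the suffix as a block (adjusted p = 0.0206 and 0.0454). Over the mean of its probe sets Man2b1 differed by 0.41 (limma adjusted p = 0.203).

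Of the 7 lipid genes none passed at 24 h, where the median difference was 0.091 and the range -0.29 to 0.42. The exception in time was acid sphingomyelinase (Smpd1), which makes ceramide from sphingomyelin. Its level was 4.72, 4.45, 4.75, 4.61 and 4.40 in undifferentiated cells, 5.56, 5.03, 4.98, 5.00 and 5.20 at 12 h, and 4.84, 4.26, 4.81, 4.95 and 4.34 at 24 h. The 12 h arrays were all above both other groups, which overlapped with each other. Smpd1 rose by 0.57 ± 0.16 at 12 h, or 1.48-fold (adjusted p = 0.0374), and was higher in 5 of 5 runs. Its difference at 24 h was 0.05 ± 0.16, and that of 24 h minus 12 h was -0.51 ± 0.16 (adjusted p = 0.136). The call at 12 h was lost in 10 of 31 alternative settings: without any of 6 single arrays, without suffix C, with the actin covariate, after median centring and with no filter on low values. By suffix Smpd1 differed by 0.71 in A, 0.31 in B and 0.80 in C at 12 h.

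The differences of the other lipid genes at 24 h were 0.42 ± 0.20 for prosaposin (Psap), the precursor of the saposins that present sphingolipids to hydrolases, 0.27 ± 0.22 for the thioesterase Ppt1 and -0.29 ± 0.15 for acid ceramidase Asah1. Acid lipase Lipa differed by -0.04 ± 0.17, and the cholesterol exporters Npc1 and Npc2 by 0.09 ± 0.35 and 0.17 ± 0.31. The Psap groups did not overlap at 24 h, and Psap passed with the suffix as a block (adjusted p = 0.0303). Its second probe set had a difference of 0.13, and over the mean of both the difference was 0.28 (limma adjusted p = 0.409).

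Among the 4 tested membrane proteins, 1 rose at 24 h, beside 12.7% of all genes, and the median difference of the 4 was 0.50. Scarb2, also called LIMP-2, carries glucocerebrosidase to the lysosome without the mannose 6-phosphate receptors. Its level was 6.23, 6.37, 6.67, 5.78 and 6.26 in undifferentiated cells, 7.74, 6.71, 6.25, 6.32 and 7.41 at 12 h, and 7.30, 7.18, 7.22, 7.50 and 8.07 at 24 h. Every 24 h array was above every undifferentiated array, while the 12 h arrays spread over both. Scarb2 rose by 1.19 ± 0.27 at 24 h, or 2.28-fold (adjusted p = 0.00443). Its second probe set had 4.77 ± 0.10 at 24 h and 4.70 ± 0.22 in undifferentiated cells (SD, n = 5 each), a difference of 0.07, so the probe sets disagreed in size. Over the mean of both the difference was 0.63 (adjusted p = 0.0320).

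The glycoproteins of the lysosomal limiting membrane did not pass: Lamp1 differed by 0.50 ± 0.26 and Lamp2 by 0.49 ± 0.23 at 24 h. Lamp2 passed with the suffix as a block (adjusted p = 0.0349). Its other probe sets had differences of 0.10, 0.43 and 0.36, and over the mean of its probe sets the difference was 0.35 (limma adjusted p = 0.338). The calcium channel Mcoln1 differed by -0.11 ± 0.21. Progranulin (Grn), a secreted protein that reaches the lysosome and whose loss impairs lipid breakdown there, differed by 0.15 ± 0.35.

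Groups at 24 h did not overlap for 5 genes that were higher (Ctsl, Scarb2, Ctsf, Idua, Psap) and for the 5 that fell, against 9.04% of all genes higher and 16% lower. Of 32 genes, 16 had the same direction in all 4 runs that hold both groups, or 50%, against 53.1% of all genes. Ctsc, Ctsz, Ctsh, Glb1 and Gla were lower in 4 of 4 runs, and Ctsl, Tpp1 and Scarb2 higher in 4 of 4.

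At 12 h only Smpd1 of the 32 genes passed, and 0 fell, against 3.3% of all genes called higher and 4.56% called lower. At an unadjusted p under 0.05, 6 genes (18.8%) were higher and 2 (6.25%) lower, against 12.4% and 13.9% of all genes. Groups did not overlap for 2 genes that were higher, Smpd1 and Naglu, and 0 that were lower, against 3.41% and 4.74% of all genes. The same direction in all 5 runs was seen for 7 of 32 genes, or 21.9%, against 23.4% of all genes. Blocking on the suffix gave 4 genes higher (Smpd1, Ctsl, Lgmn, Tpp1) and 0 lower, or 12.5% higher against 7.99% of all genes, with 10.7% of all genes lower. The median difference of the 32 genes was 0.29, against 0.0045 for all genes tested, and 26 differences were positive.

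That median rested largely on a single array. In 12 h replicate 1 the 32 genes had a median of 1.14 above the undifferentiated mean and 29 of them were above it, whereas the median of all genes there was -0.043. Replicate 2 had a median of 0.35, and replicates 3, 4 and 5 had -0.073, -0.017 and 0.045. Without replicate 1 the median difference was 0.086 with 21 of 32 positive, and without any other array of the 2 groups it was 0.25 to 0.40. Smpd1 was the gene called at 12 h, and 0 genes were called higher without 12 h replicates 1, 2 or 5 or undifferentiated replicates 2, 4 or 5. In the settings with 0, 69 to 240 of all genes were higher. The count was 3 without 12 h replicate 3, and 2 without 12 h replicate 4 (with 1 lower) or 24 h replicate 2. Of all genes, 356, 305 and 263 were higher in these settings in turn. At 24 h the medians of the arrays were 0.38, -0.10, 0.22, 0.35 and 0.054. Leaving out the alike 12 h replicates 3 and 4, a setting chosen after seeing the data, gave 11 genes higher and 1 lower (752 and 1168 of all genes), with Ctsl, Lgmn, Tpp1 and Scarb2 among the higher ones and Ctsc the lower one.

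**Figure D3:**
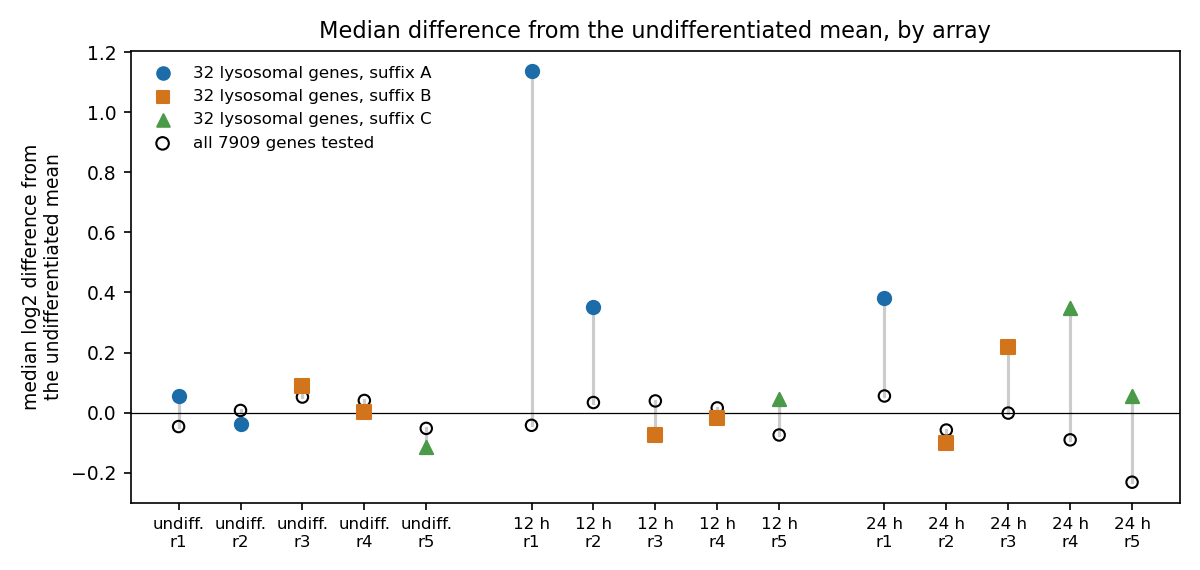
Median log2 difference from the undifferentiated mean in each array, for the 32 lysosomal genes (filled symbols, by title code suffix) and all 7909 genes tested (open circles), with a grey line joining the 2. The 12 h replicate 1 stands at 1.14 for the lysosomal genes, while all genes stay between -0.23 and 0.055 in every array.

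The 12 h and 24 h comparisons share the undifferentiated arrays, so their values are given side by side and not correlated. For the genes that fell at 24 h, the differences at 12 h were -0.61 for Ctsc, -0.44 for Glb1, -0.39 for Ctsh, -0.23 for Gla and -0.10 for Ctsz. For the genes that rose at 24 h, they were 0.91 for Lgmn, 0.84 for Ctsl, 0.62 for Scarb2 and 0.50 for Tpp1. Between the times themselves, 24 h against 12 h, 0 genes were higher and 1 was lower, Ctsc (-1.86 ± 0.23, adjusted p = 0.00453), against 0.0632% of all genes called higher and 0.354% lower. At an unadjusted p under 0.05, 0 were higher and 10 (31.2%) lower, against 4.67% and 10.4% of all genes. The median difference of the 32 genes was -0.085, against -0.058 for all genes. Without 12 h replicate 5, 5 genes were lower at 24 h than at 12 h, with Ctsz, Gla and Glb1 among them, while 239 of all genes were lower and 123 higher in that setting.

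**Figure D4:**
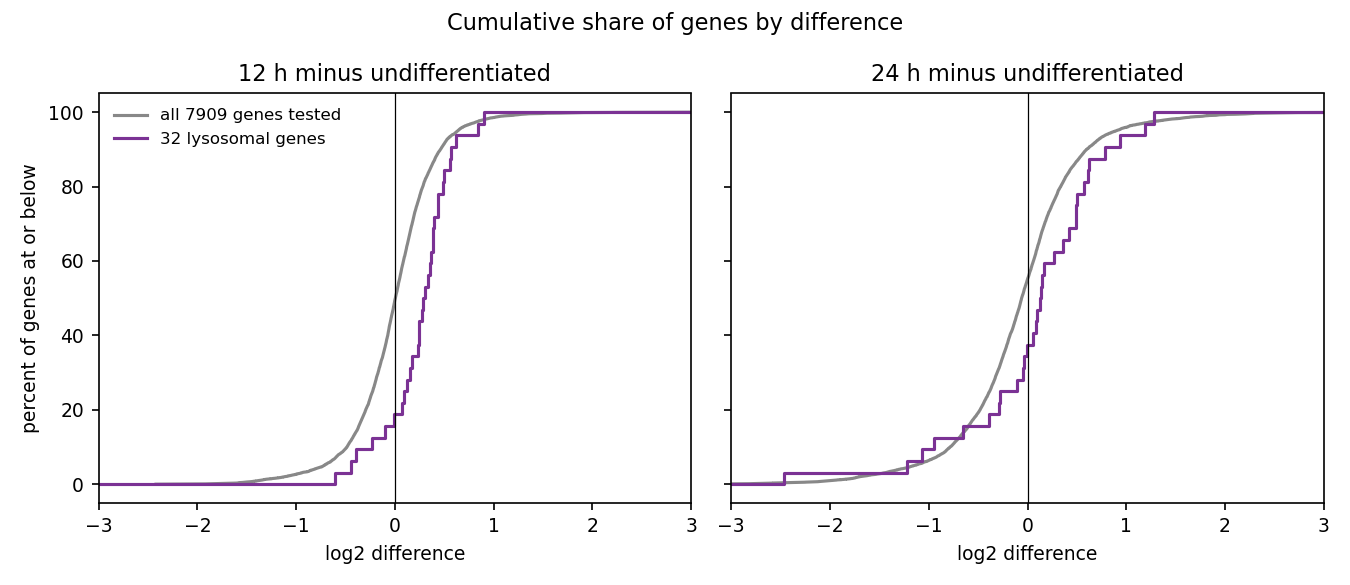
Cumulative percent of genes at or below each log2 difference at 12 h (left) and 24 h (right), for the 32 lysosomal genes (purple) and all 7909 genes tested (grey). At 12 h the lysosomal curve lies to the right of the grey one, with medians of 0.29 and 0.0045, and at 24 h it runs from -2.46 to 1.29, with medians of 0.13 and -0.060.

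Promoter sequences from RefSeq (GRCm38.p6), 250 bases before to 50 bases after a transcript start, were held for 31 of the 35 genes, all but Ctsb, Ctsh, Npc1 and Asah1. A gene can have several starts, as 3 of the 31 do, and was counted where any of its windows held a motif. The palindrome CACGTG, the core of the element that TFEB and MITF bind, was present in 10 of the 31 (32.3%), against 8.09% of 27025 genes with a promoter in the table. Lysosomal genes are known to carry this element, so the share describes the gene list and is not a result of these arrays. The 27025 genes were not limited to those tested on the arrays. The longer TCACGTG, searched on both strands and overlapping the core, was in 8 (25.8%, against 4.29%) and TCACGTGA in 4 (12.9%, against 1.13%). The fully palindromic 10-base form of the element was in 0 of the 31, against 0.370% of genes. By their call at 24 h, the core was in 2 of 4 genes that rose (Ctsl, Lgmn), in 2 of the 4 genes that fell and have a promoter (Glb1, Gla), and in 6 of 20 that did not pass (Ctsa, Ctsd, Ctsf, Lamp1, Naglu, Mcoln1). The windows of the 4 genes that moved and hold the core are shown, 2 from each direction. Each is 100 bases on the strand of the gene, 5′ to 3′, with CACGTG in capitals. Glb1 is shown at chr9:114400978-114401077 (plus strand), Gla at chrX:134601156-134601255 (minus), Lgmn at chr12:102439093-102439192 (minus) and Ctsl at chr13:64370671-64370770 (minus).
Glb1: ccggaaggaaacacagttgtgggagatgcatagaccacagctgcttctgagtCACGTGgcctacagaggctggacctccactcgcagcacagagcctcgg
Gla: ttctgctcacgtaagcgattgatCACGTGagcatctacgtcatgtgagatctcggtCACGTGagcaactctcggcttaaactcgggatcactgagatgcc
Lgmn: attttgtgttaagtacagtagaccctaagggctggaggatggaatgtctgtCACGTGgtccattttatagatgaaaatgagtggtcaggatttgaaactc
Ctsl: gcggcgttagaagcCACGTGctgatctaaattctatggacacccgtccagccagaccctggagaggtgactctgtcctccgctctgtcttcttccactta
The core begins 48 bases before the transcript start used for Glb1, 49 before that for Lgmn, 236 before that for Ctsl, and 227 and 194 before that for Gla. The starts of Glb1 and Gla are the outermost of the annotated gene, whereas those of Lgmn and Ctsl lie 636 and 252 bases inside it, so their printed windows fall within the gene. The window at the outermost start of Lgmn held no CACGTG, and Ctsl had no window at its outermost start. For Ctsa too the motif was in the window of a start 901 bases inside the gene. Some genes counted without the motif also had only a window inside the gene. Such starts lay 20749 bases inside for Ids, 13114 for Cd63 and 539 for Man2b1, so their outermost starts were not searched. The longer TCACGTG was found in the promoters of Glb1, Gla and Lgmn and not in that of Ctsl. A match describes the letters in this window and is not a measured binding site.

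The wider machinery of the lysosome was followed in 6 lists of 130 genes, of which 101 had a probe set and 90 were tested. At 24 h 11 of the 90 (12.2%) rose and 5 (5.56%) fell, against the 12.7% and 19.4% of all genes. At 12 h 5 (5.56%) rose and 1 (1.11%) fell, against 3.3% and 4.56%, with median differences of 0.13 at 24 h and 0.17 at 12 h, beside -0.060 and 0.0045 for all genes tested. Between 24 h and 12 h 0 passed in limma, with 4 (4.44%) higher and 7 (7.78%) lower at an unadjusted p under 0.05, and with the suffix as a block 1 was higher and 1 lower. The suffix as a block gave 19 of the 90 higher and 7 lower at 24 h, beside 1434 and 1874 of the 7909 genes. Quantile normalisation gave 19 higher and 6 lower, beside 1585 and 1315 of 7912 genes tested there. The counts of all genes called higher thus grew as well, from 1003.

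Among 21 other hydrolases 1 rose and 2 fell at 24 h, beside 12.7% and 19.4% of all genes. Naaa, an amidase that degrades anti-inflammatory N-acylethanolamines, had levels of 0.62, 0.38, 1.26, 0.01 and -0.30 in undifferentiated cells, 1.73, 2.31, 1.09, 1.16 and 1.71 at 12 h, and 3.98, 2.64, 3.19, 2.59 and 2.65 at 24 h. All 24 h arrays were above all 12 h and undifferentiated arrays. Naaa rose by 2.61 ± 0.32 at 24 h (adjusted p = 1.02e-04) and by 1.21 ± 0.32 at 12 h (adjusted p = 0.0322). Its undifferentiated mean of 0.40 is below the filter level of 0.51, so it passed the filter through the later groups and the sizes of these differences are uncertain. The carboxypeptidase Prcp fell by 1.31 ± 0.20 (adjusted p = 4.61e-04) and the hyaluronidase Hyal2 by 0.54 ± 0.17 (adjusted p = 0.0240) at 24 h.

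Among 14 other membrane proteins and transporters, 1 fell at 24 h, the iron transporter Slc11a2 (-0.57 ± 0.15, adjusted p = 0.00798). At 12 h 2 rose, Sidt2 (0.73 ± 0.19, adjusted p = 0.0282) and the nucleoside transporter Slc29a3 (0.58 ± 0.17, adjusted p = 0.0418). Beside these counts, 19.4% of all genes fell at 24 h and 3.3% rose at 12 h. Of 17 V-ATPase subunits, 3 of the membrane sector rose at 24 h, Atp6v0e (0.95 ± 0.23), Atp6v0d1 (0.63 ± 0.14) and Atp6v0e2 (0.41 ± 0.15, adjusted p = 0.04996). The cytosolic subunit Atp6v1c1 fell by 0.97 ± 0.18 at 24 h and by 0.69 ± 0.18 at 12 h. The other 13 subunits did not pass at 24 h, and the list median was 0.22. Of all genes, 12.7% rose and 19.4% fell at 24 h, and 4.56% fell at 12 h.

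Of 19 genes for delivery to the lysosome, 5 rose and 1 fell at 24 h, beside 12.7% and 19.4% of all genes. The sorting receptor Sorl1, which moves cargo between the Golgi and endosomes, rose by 2.21 ± 0.26 at 24 h and its relative Sort1, which can carry prosaposin, by 0.68 ± 0.16. Vps41 rose by 0.78 ± 0.18 and Vps39 by 0.58 ± 0.15, both subunits of the HOPS complex that tethers late endosomes to lysosomes. The mannose 6-phosphate receptors did not pass at 24 h, with -0.35 ± 0.15 for M6pr (adjusted p = 0.0973) and -0.49 ± 0.33 for Igf2r (adjusted p = 0.273). At 12 h Sorl1 and Sort1 rose, by 1.78 ± 0.26 and 0.67 ± 0.16, where 3.3% of all genes rose.

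Of 16 genes of transcriptional and mTORC1 control, 1 rose at 24 h, beside 12.7% of all genes. Mitf had levels of 1.26, 1.19, 1.62, 2.01 and 1.48 in undifferentiated cells, 1.41, 2.30, 1.83, 1.65 and 2.82 at 12 h, and 2.45, 2.34, 2.36, 3.02 and 2.80 at 24 h. Every 24 h array was above every undifferentiated array. Mitf rose by 1.08 ± 0.24 at 24 h (adjusted p = 0.00395). Tfeb differed by 0.33 ± 0.13 (adjusted p = 0.0627, and 0.0374 with the suffix as a block), and Tfe3 was not analysed here. RNA levels do not report where these factors lie in the cell.

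Beside 12.7% of all genes, 1 of 3 tested inhibitors of cysteine proteases rose at 24 h: cystatin C (Cst3), a secreted inhibitor of cathepsins. Its level was 8.77, 8.18, 8.30, 7.76 and 8.05 in undifferentiated cells, 9.68, 8.85, 8.40, 8.59 and 9.92 at 12 h, and 9.0, 8.84, 9.29, 10.48 and 10.58 at 24 h. The suffix C replicates 4 and 5 were the highest at 24 h, and every 24 h array was above the undifferentiated ones. Cst3 rose by 1.43 ± 0.38 at 24 h (adjusted p = 0.00938). Within suffix A the difference was 0.52, within B 1.03 and within C 2.48. At 12 h its difference was 0.88 ± 0.38 (adjusted p = 0.149).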

How the data were processed

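Biotin-labelled total RNA was measured on an Affymetrix mouse array (22690 probe sets), per the labels' protocols. The authors deposited 1 value per probe set and array, on a scale read here as log10. The submitters' processing notes name MAS5, whose version, settings and scaling no source used here gives. The base was settled from hybridisation spike-ins, with a slope of 0.982 ± 0.0468 (SD, 15 arrays) against the log10 of standard concentrations. Values were multiplied by 3.32 to give log2 and not normalised further, with array medians of 0.287 to 0.453 on the log10 scale. Precision is limited by the number of arrays.

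Probe sets other than controls numbered 22626, of which 20393 carried 1 gene symbol, 691 several and 1542 none here. Genes whose mean exceeded the 40th percentile (0.51 on the log2 scale) were tested with limma 3.58.1 in R 4.3.3, with moderated variances, a trend and Benjamini-Hochberg adjustment. The test had been planned for linear or log2 values. It was checked on simulated data in which arrays were drawn independently, without suffix or run effects, so the check does not cover dependence between arrays. Promoter motifs and exact permutation tests were computed in Python 3.11.15 with SciPy 1.17.1. Replicates are numbered by accession and pair no samples. The genes, lists and tests were chosen with earlier results of these data known. Full values are given for genes that passed in a comparison, and from each wider list at most the 4 called genes with the smallest p per comparison are named, besides Tfeb, Mitf, Cst3, M6pr and Igf2r. Alternatives changed the scaling, pseudocount, filter, probe sets, variance model, batch terms, covariate, labels and single arrays.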

Additional observations from a re-analysis of the deposited data

Results flagged for a closer look

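In 7 of 99 groups of 5 arrays, over 33 lysosomal genes and 3 groups, a single array lay farther from the nearest other than Dixon's critical value of 0.71 of the range allows. Chance flags about 1 in 20 groups. The 12 h replicate 1 was the highest of its group for Ctsd (7.33), Ctsh (3.05) and Gusb (3.91). The 24 h replicate 2 was the lowest of its group for Ctsd (5.62), Ctsz (4.00) and Tpp1 (5.57). Undifferentiated replicate 4 was the highest of its group for Ctss (0.36), which is below the filter level.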

How the results depend on the processing

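Among settings other than single arrays, the counts of lysosomal genes moved by over 1.5 times as follows. Genes higher at 12 h (1 in the report) were 3 after quantile normalisation, 0 after median centring, 0 with no filter, 4 with the suffix as a block, 4 with runs as a fixed or a random block, 0 with the actin covariate, 3 with 12 h replicates 3 and 4 averaged, 11 with both left out, 0 without suffix C and 0 under file codes. Genes lower at 12 h (0) were 1 with replicates 3 and 4 averaged or left out. Genes higher at 24 h (4) were 7 after quantile normalisation or centring, 9 with only the 2 groups compared, 11 with the suffix or runs as a fixed block, 10 with runs as a random block, and 0 with the actin covariate, without suffix C or under file codes. Genes lower at 24 h (5) were 1 with the actin covariate and 0 under file codes. Genes lower at 24 h than at 12 h (1) were 2 with runs as a random block and 0 under file codes. Of all genes, 261 were higher at 12 h in the report, 448 after quantile normalisation, 279 after centring and 632 with the suffix block. At 24 h these were 1003, 1585, 1431 and 1434. With runs as a fixed and random block they were 478 and 633 at 12 h, and 1211 and 1332 at 24 h. Without suffix C they were 35 at 12 h and 516 at 24 h, and with the actin covariate 120 and 26. With 12 h replicates 3 and 4 averaged, 319 were higher at 12 h. Comparing only the 2 groups gave 1080 at 24 h. Over the wider lists, the suffix as a block gave 11 higher and 2 lower at 12 h, 19 higher at 24 h, and 1 higher and 1 lower between the times, and quantile normalisation gave 19 higher at 24 h and 1 higher between the times. Beside these, all genes had 632 higher and 844 lower at 12 h and 1434 higher at 24 h with the block. Between the times they had 40 higher and 162 lower with it. Quantile normalisation gave 1585 of all genes higher at 24 h and 14 between the times. Leaving out single arrays gave 0 to 3 higher and 0 to 1 lower at 12 h, 3 to 9 higher and 5 to 6 lower at 24 h, and 0 to 0 higher and 1 to 5 lower between the times. The 9 higher came without 12 h replicate 1, the 3 higher at 12 h without 12 h replicate 3, and the 5 lower without 12 h replicate 5.

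Ctsh, Ctsz, Gla and Glb1 lost their call at 24 h with the actin covariate, and Ctsl, Lgmn and Scarb2 also without suffix C, and with the title groups under no other setting run. Their differences with the covariate kept their direction, with larger standard errors, and that fit called 26 of all genes higher and 8 lower. File codes gave 0 of all genes in any comparison. The causes were not tested. Differences that changed sign were all of genes that had not passed in that comparison. At 24 h Naglu was 0.11 after quantile normalisation, 0.14 after centring and 0.042 without suffix C. Ctsd was 0.11 after centring, 0.038 with the suffix block, 0.076 and 0.012 with runs as a fixed and random block, and 0.19 with the actin covariate. Lipa was 0.12 and 0.10 under the 2 scalings, 0.22 with the covariate and 0.0054 without suffix C. Mcoln1 was 0.067 and 0.037 under the scalings and 0.43 with the covariate. Without suffix C Npc2 was -0.18, Grn -0.15 and, at 12 h, Ctsz 0.16. Between 24 h and 12 h, Lgmn was -0.13 and Tpp1 -0.011 with 12 h replicates 3 and 4 averaged, and -0.40 and -0.22 with both left out. Without single arrays the ranges were -0.10 to 0.095 for Naglu, -0.097 to 0.076 for Ctsd, -0.11 to 0.074 for Lipa, -0.21 to 0.0050 for Mcoln1, -0.11 to 0.25 for Npc1 and -0.024 to 0.15 for Smpd1 at 24 h, -0.20 to 0.044 for Ctsz at 12 h, and -0.14 to 0.20 for Lgmn and -0.021 to 0.30 for Tpp1 between the times. The labels carry no replicate numbers to pair by, and the blocks of suffixes and of runs gave the counts above.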
